A study of Mus musculus with 8 samples.

Results

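The genes described here are 42 type I interferon-stimulated genes of the mouse, chosen by name and with earlier results of these data known. Of these, 40 have an amplicon among the 23930 amplicons of the expression panel. Ifit3 and Isg15 are not analysed here. All 40 measured genes passed the filter on low reads, and the question was which of them follow lipopolysaccharide (LPS) in wild-type (WT) mice and which do so in SOCS3iKEO mice without a detected change in WT. The study profiled RNA of kidney endothelium after LPS, the cell-wall endotoxin of Gram-negative bacteria that is used to model septic shock. Each of 8 mice gave 1 library. The SOCS3iKEO LPS group had 2 mice, the WT LPS group 3 mice, the SOCS3iKEO saline group 1 mouse and the WT saline group 2 mice. SOCS3iKEO is the submitters' genotype label, here taken as the inducible endothelial knockout of Socs3 that the study uses. LPS mice received 1 intraperitoneal injection of 250 μg LPS in 250 μl, control mice received 250 μl of saline, and kidneys were taken 14 h later. Mice of all 4 groups carried a TRAP transgene, a GFP-tagged ribosomal protein (EGFP/Rpl10a) switched on by the tamoxifen-inducible, endothelial cdh5-CreERT2 driver, so that RNA on ribosomes of cells with past Cre activity could be pulled down. The labels used here give no age, sex or strain for single mice.

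Type I interferons bind a receptor made of the IFNAR1 and IFNAR2 chains, whose kinases TYK2 and JAK1 phosphorylate STAT2 among other proteins. STAT2 and IRF9 are part of the complex ISGF3, which binds the interferon-stimulated response element (ISRE) in the promoters of antiviral genes. LPS can induce interferon beta through TLR4, the adaptor TRIF and the transcription factor IRF3. SOCS proteins are feedback inhibitors of JAK kinases, and SOCS3 is best known for restraining signals of the gp130 receptor family through STAT3.

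Promoter sequences show the element that many of these genes share. RefSeq promoter windows of 250 bases before to 50 bases after the gene start (build GRCm38.p6) were matched for 31 of the 40 measured genes. No window was matched for Dhx58, Mx1, Mx2, Oas2, Parp14, Parp9, Rtp4, Usp18 and Zbp1. The ISRE core, searched as GAAANNGAAA and on the other strand as TTTCNNTTTC, lay in the windows of 11 of these 31 genes (35.5%), against 3.99% of 27025 genes with a window. The GAS element, searched as TTCNNNGAA, which reads the same on both strands, lay in 7 of the 31 (22.6%), against 9.55% of genes. These are matches of letters, not tested sites. By the limma test described below, the LPS effect was called different between genotypes for Ifit1, Rsad2 and Oas1a. These calls were lost under 11, 3 and 6 of the alternatives run. For Bst2, Trim30a and Oas3 no such difference was detected. Printed below are stretches before the start of all these genes, with every ISRE core in capitals, 5′ to 3′ on the gene's strand. Their GRCm38.p6 positions are chr19:34640765-34640814 on the plus strand for Ifit1, and on the minus strand chr12:26456543-26456592 for Rsad2, chr5:120907526-120907565 for Oas1a, chr8:71537573-71537622 for Bst2, chr7:104465200-104465249 for Trim30a and chr5:120777705-120777754 for Oas3.
Ifit1: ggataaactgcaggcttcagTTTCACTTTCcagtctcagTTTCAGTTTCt
Rsad2: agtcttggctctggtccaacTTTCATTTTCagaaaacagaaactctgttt
Oas1a: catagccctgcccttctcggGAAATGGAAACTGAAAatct
Bst2: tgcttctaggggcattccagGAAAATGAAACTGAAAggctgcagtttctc
Trim30a: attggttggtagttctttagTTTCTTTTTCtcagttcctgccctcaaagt
Oas3: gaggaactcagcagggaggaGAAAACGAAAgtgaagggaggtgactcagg
Ifit1 carries separate copies of the core, and in Oas1a and Bst2 overlapping copies merge into longer runs. The core lay in 6 of 16 windows of genes with a called difference of the LPS effects and in 5 of 15 windows of genes without one.

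The libraries held 7093794 to 14877519 reads. Several facts of the libraries bear on every value. The 10 most abundant amplicons took 12.7% to 15% of the reads in SOCS3iKEO LPS, against 6.21% to 7.05% in WT LPS and 4.87% to 5.07% after saline. Values are therefore given as scaled RPM, that is reads per 1000000 panel reads divided by the TMM factor of the library, and results on RPM as deposited stand beside them. TMM factors were 0.671 and 0.709 in SOCS3iKEO LPS, against 0.994, 1.07 and 1.01 in WT LPS, 1.25 in SOCS3iKEO saline, and 1.26 and 1.25 in WT saline. Animal numbers fall into separate runs, SOCS3iKEO LPS and WT saline mice in the earlier and the other groups in the later, so run and group cannot be told apart in any comparison below. Reads of Y-linked genes numbered 3987 in WT LPS 2, 3320 in WT LPS 3 and 3805 in WT saline 2. Every other library had at most 3, WT LPS 1 and all SOCS3iKEO libraries included. Nothing says that the mice were handled as separate batches, and replicates of a group differed by more than sampling noise (chi-square per degree of freedom between 27.8 and 66.6).

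Socs3 itself had 20 and 25 reads in SOCS3iKEO LPS, against 118, 17 and 26 in WT LPS, 2 in SOCS3iKEO saline, and 9 and 3 in WT saline. Per depth this was 3.53 and 2.5 scaled RPM in SOCS3iKEO LPS, against 9.94, 1.18 and 2.34 in WT LPS, 0.226 in SOCS3iKEO saline, and 0.5 and 0.162 in WT saline. WT LPS 1 stood above the rest, WT LPS 2 was below both SOCS3iKEO LPS libraries, and WT LPS 3 was below both on scaled RPM but lay between them on deposited RPM. Where the amplicon lies relative to the deleted part is not given, so these reads do not check the genotype labels. The 13 endothelial marker genes, all detected in every library, summed to 6740.2 and 8721 scaled RPM in SOCS3iKEO LPS, against 6807 to 8501 in WT LPS, 8637 in SOCS3iKEO saline, and 8751 and 9468 in WT saline. On deposited RPM the sums were 4525 and 6182 in SOCS3iKEO LPS, against 6769 to 8569 in WT LPS, 10764 in SOCS3iKEO saline, and 11046 and 11827 in WT saline. The sums of the LPS groups overlapped on scaled RPM, whereas on deposited RPM SOCS3iKEO LPS lay below WT LPS. Single markers went both ways. After LPS, limma called 3 of the 13 higher and 4 lower in SOCS3iKEO than in WT (2 and 7 deposited). All genes gave 24% and 26.7% (13.4% and 41.7% deposited). Cdh5 had 1493.5 and 1920.8 scaled RPM in SOCS3iKEO LPS, against 312.8 to 369.2 in WT LPS. Tek had 30.9 and 27.2, against 70.3 to 149.2. The sums thus do not show that the endothelium was alike. Fewer cells of a type and less RNA per cell cannot be told apart in these bulk samples.

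Across the genes, LPS was followed by a broad rise in SOCS3iKEO and by fewer called rises and a lower median fold change in WT. A gene is called when its limma p-value, adjusted over all 12820 genes tested, is under 0.05. Because the list was chosen with earlier results known, shares of all genes printed beside its counts are descriptive and not a test. In SOCS3iKEO, 32 of 40 genes rose with LPS and 0 fell, against backgrounds of 20.2% of all genes higher and 23.9% lower. All 40 log2 fold changes in SOCS3iKEO were above 0 on scaled RPM, 7 of them below 0 on deposited RPM, and limma at an unadjusted p under 0.05, edgeR and DESeq2 likewise found 0 lower. In WT, 9 of 40 rose (Zbp1, Mx1, Oas3, Lgals3bp, Dhx58, Oasl2, Ifi35, Usp18 and Adar) and 2 fell (Ifit2 and Ifi44). All genes gave 6.85% higher and 8.79% lower. The count that rose in WT depends on tool and threshold. It was 8 with edgeR, 13 with DESeq2 and 15 by limma at an unadjusted p under 0.05. In either direction, limma found 18 of the 40 genes at that unadjusted threshold, against 4083 of all 12820 genes. With adjustment, edgeR called 2065 of all genes in either direction, and the DESeq2 count over all genes is not given here. On scaled RPM 35 of the 40 log2 fold changes in WT were above 0 (26 deposited), against 6223 of 12820 genes (3986 deposited). The median log2 fold change of the 40 genes was 1.90 in SOCS3iKEO and 0.50 in WT, where the medians of all genes were -0.08 and -0.02. Both effects are given in the plot of the LPS response in either genotype.

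**Figure D1:**
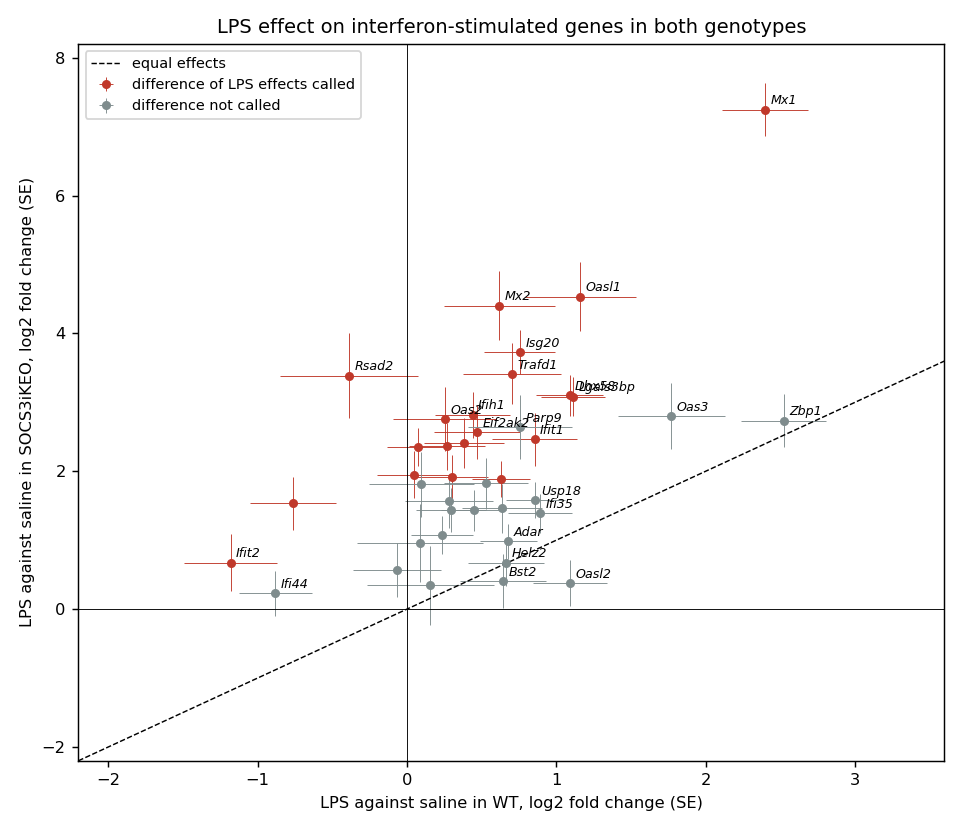
Log2 fold change of LPS against saline in SOCS3iKEO (vertical axis) and in WT (horizontal axis) for the 40 genes, on TMM-scaled RPM with bars of 1 SE; red points have a called difference of the effects and the dashed line marks equal effects. Mx1 lies highest with 7.25 in SOCS3iKEO and 2.40 in WT, Zbp1 lies near the line with 2.73 and 2.52, and Oasl2 lies below it with 0.38 and 1.09.

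The difference of the LPS effects, SOCS3iKEO minus WT, was called for 20 of 40 genes, all 20 higher in SOCS3iKEO, against 8.96% of all genes higher and 9.49% lower. The count of 0 lower was also found by limma at an unadjusted p under 0.05 and by edgeR and DESeq2, which called 20 and 26 higher. Of these 20, 16 rose in SOCS3iKEO and were not called in WT, namely Ddx58, Ifih1, Oas1a, Oas2, Oasl1, Eif2ak2, Ifit1, Mx2, Rsad2, Cmpk2, Isg20, Samd9l, Trim25, Trafd1, Znfx1 and Epsti1. A further 3, Dhx58, Mx1 and Lgals3bp, rose in both genotypes and more in SOCS3iKEO, and Ifit2 fell in WT and was not called in SOCS3iKEO. Another 8 genes rose in SOCS3iKEO and were not called in WT, but the difference of their effects was not called either (Rtp4, Xaf1, Herc6, Trim30a, Parp9, Parp12, Parp14 and Dtx3l), so they are not shown to respond in 1 genotype alone. Genes called in neither genotype were Ddx60, Bst2, Trim21, Helz2 and Sp100.

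SOCS3iKEO was also set against WT directly after LPS. Here 30 genes were higher in SOCS3iKEO and Oasl2 was lower, against backgrounds of 24% and 26.7% of all genes, with a median log2 fold change of 1.40 beside -0.04 for all genes. It shares the LPS libraries with the comparisons above, so it is no separate support for them. After saline, 0 of 40 genes were higher and 0 lower between SOCS3iKEO and WT by limma, as were 0% of all genes in each direction. At an unadjusted p under 0.05 limma found 0 of the 40, against 423 of all 12820 genes. At that unadjusted threshold edgeR and DESeq2 found 1 of the 40 each, and with adjustment both of these tools called 0. The saline comparison rests on 1 SOCS3iKEO library, whose log2 differences from WT saline ran between -0.55 (Oas1a) and 0.61 (Mx1).

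On RPM as deposited the same comparisons gave fewer higher calls, and more lower calls over all genes, since without TMM scaling the median of all genes shifts to -0.73 with LPS in SOCS3iKEO and to -0.26 in WT. There, 23 genes rose and 0 fell in SOCS3iKEO (background 9.51% and 44.4%), and 5 rose and 3 fell in WT (4.57% and 18.5%), the added fall being Cmpk2. Between genotypes after LPS, 20 were higher and 2 lower (13.4% and 41.7%), the added one being Helz2, and the difference of the effects was called higher for 16 and lower for 0 (4.84% and 20%). Every gene called higher on deposited RPM was also called higher on scaled RPM. The genes whose call was lost were Usp18, Oasl2, Ifi35 and Adar for LPS in WT, Herc6, Trim30a, Dtx3l, Parp12, Parp14, Ifi35, Cmpk2, Rtp4 and Adar for LPS in SOCS3iKEO, and Ifit1, Ifit2, Oas1a and Znfx1 for the difference of the effects. Between genotypes after LPS the lost calls were Ifit2, Trim21, Trim30a, Oas1a, Oas3, Parp12, Ifi44, Znfx1, Rtp4 and Xaf1.

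Words below on which libraries are high or low refer to scaled RPM. On deposited RPM, SOCS3iKEO LPS overlapped WT LPS, in place of lying above it, for 9 genes (Oas1a, Oas3, Adar, Herc6, Trim21, Parp12, Dtx3l, Ifi44 and Ifi35) and lay below it for Usp18 and Helz2. WT LPS overlapped saline there, in place of lying above it, for another 9 (Ifih1, Eif2ak2, Isg20, Bst2, Rtp4, Herc6, Parp9, Helz2 and Trafd1). SOCS3iKEO LPS lay below saline on deposited RPM for Oasl2, Ifi44 and Sp100, and overlapped it for Trim21 and Helz2. The log2 fold changes with LPS in SOCS3iKEO that were below 0 on deposited RPM, none of them called on either scale, were -0.15 for Ifit2, -0.47 for Oasl2, -0.35 for Ddx60, -0.17 for Helz2, -0.62 for Ifi44, -0.28 for Sp100 and -0.44 for Bst2.

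Single libraries also decide part of the calls. Without WT saline 1 or without WT saline 2, Mx1 and Zbp1 alone remained called for LPS in WT, 2 genes in place of 11, and without WT LPS 2 there were 7. The difference of the effects was called for 4 genes without WT saline 1 (Isg20, Mx1, Mx2 and Trim25), for 8 without WT saline 2 (these and Dhx58, Ifih1, Oasl1 and Lgals3bp) and for 13 without WT LPS 2 or WT LPS 3. The calls for LPS in SOCS3iKEO numbered 32 or 33 whichever other library was left out, but they all rest on the lone SOCS3iKEO saline library, which is assumed to vary like the other groups.

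**Figure D2:**
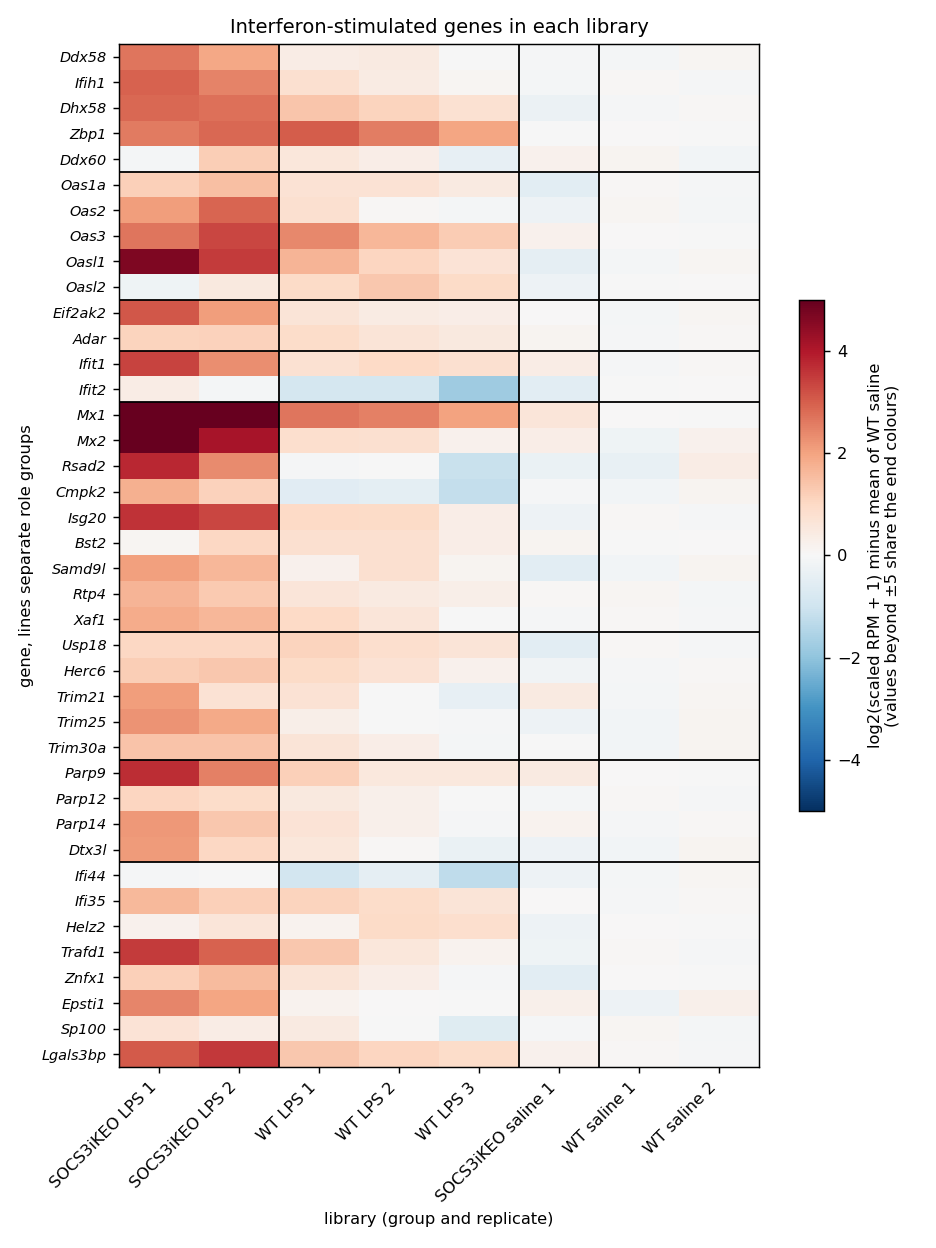
Values of the 40 genes in each of the 8 libraries as log2(scaled RPM + 1) minus the mean of the 2 WT saline libraries, with libraries across and genes down, grouped by role; red is above and blue below WT saline. Most genes are red in both SOCS3iKEO LPS libraries, and Ifit2 and Ifi44 are blue in the 3 WT LPS libraries.

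Sensors of foreign nucleic acid divided into 3 that rose more with LPS in SOCS3iKEO and Zbp1, which rose in both genotypes with no difference detected. Of the 5 genes, 4 rose with LPS in SOCS3iKEO, 2 rose in WT, and the difference was called for 3. Ifih1, encoding MDA5, a sensor of long RNA duplexes, had 621 and 442 scaled RPM in SOCS3iKEO LPS, against 139.6, 106 and 83.8 in WT LPS, 73.3 in SOCS3iKEO saline, and 81.9 and 76 in WT saline. Both SOCS3iKEO LPS libraries lay above all others, and WT LPS overlapped no saline library but stayed close to them. Its LPS effect was 2.82 (SE 0.34, limma adjusted p = 0.00044) in SOCS3iKEO and 0.44 (SE 0.25, limma adjusted p = 0.26) in WT on the log2 scale, with a difference of 2.38 (SE 0.42, limma adjusted p = 0.01). Ddx58, encoding RIG-I, which senses short RNA with a free triphosphate end, had 450 and 270.4 scaled RPM in SOCS3iKEO LPS, against 90.5, 94.4 and 68.3 in WT LPS, 67 in SOCS3iKEO saline, and 65.4 and 73.5 in WT saline, and its effects differed by 2.10 (SE 0.43, limma adjusted p = 0.015). Here the lowest WT LPS library fell within the saline range. Dhx58 encodes LGP2, a helicase that tunes these sensors, and had 164 and 151 scaled RPM in SOCS3iKEO LPS, against 58.6, 47.3 and 37.6 in WT LPS, 17.4 in SOCS3iKEO saline, and 20.8 and 22.4 in WT saline. Its 4 groups were ordered without overlap from SOCS3iKEO LPS at the top through WT LPS to saline, and LPS raised it by 3.10 (SE 0.30, limma adjusted p = 0.00021) in SOCS3iKEO and by 1.09 (SE 0.23, limma adjusted p = 0.014) in WT.

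Zbp1, a sensor of Z-form nucleic acid that can trigger necroptosis, showed the other pattern. It had 408 and 491 scaled RPM in SOCS3iKEO LPS, against 557, 397 and 268 in WT LPS, 66.5 in SOCS3iKEO saline, and 67.8 and 66.2 in WT saline. The SOCS3iKEO LPS values lay inside the WT LPS range, and every LPS library was well above every saline library. LPS effects were 2.73 (SE 0.38, limma adjusted p = 0.00081) in SOCS3iKEO and 2.52 (SE 0.28, limma adjusted p = 0.001) in WT, and their difference was 0.21 with a 95% interval of -0.86 to 1.28, which does not show that they are equal. On deposited RPM the difference was -0.35 (limma adjusted p = 0.62). Ddx60, a helicase reported to aid RIG-I, stayed under 10 scaled RPM in every library and was called in no comparison.

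The OAS family makes or resembles the enzymes that produce 2′-5′ oligoadenylate, the activator of RNase L. Oas1a, Oas2 and Oas3 belong to the enzymes, and Oasl1 and Oasl2 are named OAS-like, which does not by itself mean that they lack the activity. In this family limma called 4 of 5 genes higher with LPS in SOCS3iKEO and 2 of 5 in WT. In WT the count depends on the tool, since DESeq2 called 4 of 5, edgeR 2 and limma on deposited RPM 1, and limma and edgeR found 4 at an unadjusted p under 0.05, whereas in SOCS3iKEO each of these gave 4. Oasl1, known in mouse to limit translation of Irf7, had 1452 and 639 scaled RPM in SOCS3iKEO LPS, against 184, 121 and 91.3 in WT LPS, 40.6 in SOCS3iKEO saline, and 52.3 and 60.1 in WT saline. All LPS libraries exceeded all saline libraries, with SOCS3iKEO LPS highest, and the effects of 4.53 (SE 0.50, limma adjusted p = 0.00032) in SOCS3iKEO and 1.16 (SE 0.37, limma adjusted p = 0.064) in WT differed by 3.37 (SE 0.62, limma adjusted p = 0.011). Oas2 had 34.3 and 60.5 scaled RPM in SOCS3iKEO LPS, against 13.2, 7.49 and 6.76 in WT LPS, 5.88 in SOCS3iKEO saline, and 7.72 and 6.73 in WT saline, so that only WT LPS 1 stood clear of saline among the WT LPS libraries, and the difference of its effects was 2.51 (SE 0.58, limma adjusted p = 0.022).

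Oasl2 went against the rest of the family. It had 278 and 455 scaled RPM in SOCS3iKEO LPS, against 627, 831 and 627 in WT LPS, 273 in SOCS3iKEO saline, and 323 and 323 in WT saline, so that every WT LPS library lay above both SOCS3iKEO LPS libraries and SOCS3iKEO LPS 2 alone of these lay above all saline libraries. It rose with LPS in WT (log2 fold change 1.09, SE 0.25, limma adjusted p = 0.02), while in SOCS3iKEO its log2 fold change was 0.38 (limma adjusted p = 0.38). After LPS it was lower in SOCS3iKEO than in WT, with a log2 fold change of -0.95 (SE 0.25, limma adjusted p = 0.012), and of -1.52 on deposited RPM. That call was lost without SOCS3iKEO LPS 1 and with a term for Y-linked reads, and the difference of the 2 LPS effects, -0.71 (SE 0.42, limma adjusted p = 0.25), was not called. Oasl2 and Oasl1 are neighbours on chromosome 5, read in the same direction with 11005 bases between them.

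Oas3 was the least abundant of the family and rose with LPS in both genotypes. It had 7.77 and 12.6 scaled RPM in SOCS3iKEO LPS, against 6.15, 3.26 and 2.25 in WT LPS, 0.566 in SOCS3iKEO saline, and 0.389 and 0.323 in WT saline. Its LPS effect was 2.80 (SE 0.48, limma adjusted p = 0.0021) in SOCS3iKEO and 1.77 (SE 0.36, limma adjusted p = 0.012) in WT, and the difference, 1.03 (SE 0.60, limma adjusted p = 0.24), was not called. Oas1a had 172 and 219 scaled RPM in SOCS3iKEO LPS, against 125, 126 and 104 in WT LPS, 51.7 in SOCS3iKEO saline, and 80.2 and 71.9 in WT saline, with SOCS3iKEO saline the lowest library of all, and the difference of its effects was 1.26 (SE 0.33, limma adjusted p = 0.031). Oas1a has near-identical relatives, among them Oas1g, and how their reads were shared out is not given, so its values are uncertain.

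Of the other enzymes that act on RNA duplexes, Eif2ak2 encodes PKR, which halts translation, and Adar encodes the editing enzyme ADAR1. Eif2ak2 had 327 and 162 scaled RPM in SOCS3iKEO LPS, against 59.7, 50.5 and 46.8 in WT LPS, 37.9 in SOCS3iKEO saline, and 35 and 39.8 in WT saline. SOCS3iKEO LPS was far above the rest and the WT LPS values were just above saline, with effects of 2.57 (SE 0.39, limma adjusted p = 0.0011) in SOCS3iKEO and 0.47 (SE 0.29, limma adjusted p = 0.3) in WT and a difference of 2.10 (SE 0.48, limma adjusted p = 0.022). Adar had 422 and 427 scaled RPM in SOCS3iKEO LPS, against 360.1, 301 and 271 in WT LPS, 214 in SOCS3iKEO saline, and 186 and 199.8 in WT saline. It rose in both genotypes, by 0.98 in SOCS3iKEO (limma adjusted p = 0.013) and 0.68 in WT (limma adjusted p = 0.043), although in WT the edgeR call was missed and without any of 5 libraries or on deposited RPM it was lost.

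IFIT proteins bind viral RNA and hold back its translation. Ifit1 had 2258 and 1103 scaled RPM in SOCS3iKEO LPS, against 365, 437 and 385 in WT LPS, 285 in SOCS3iKEO saline, and 211 and 225 in WT saline. SOCS3iKEO LPS libraries lay above WT LPS and WT LPS above all saline libraries. The effect was 2.47 (SE 0.38, limma adjusted p = 0.0013) in SOCS3iKEO and 0.85 (SE 0.29, limma adjusted p = 0.073) in WT, and the difference, 1.61 (SE 0.48, limma adjusted p = 0.046), was close enough to the threshold to be lost under 11 of the alternatives run. Ifit2 behaved otherwise, with 50.2 and 36.2 scaled RPM in SOCS3iKEO LPS, against 20.3, 20.7 and 10.6 in WT LPS, 26.4 in SOCS3iKEO saline, and 37.9 and 39.4 in WT saline. WT LPS was below every other library, and the fall in WT was -1.18 (SE 0.31, limma adjusted p = 0.033), whereas SOCS3iKEO had a log2 fold change of 0.67 (limma adjusted p = 0.21). The difference of its effects was 1.85 (SE 0.52, limma adjusted p = 0.038). Ifit1 and Ifit2 lie in 1 cluster on chromosome 19 with Ifit3 between them, and mouse IFIT genes are alike in sequence, so reads may be shared.

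**Figure D3:**
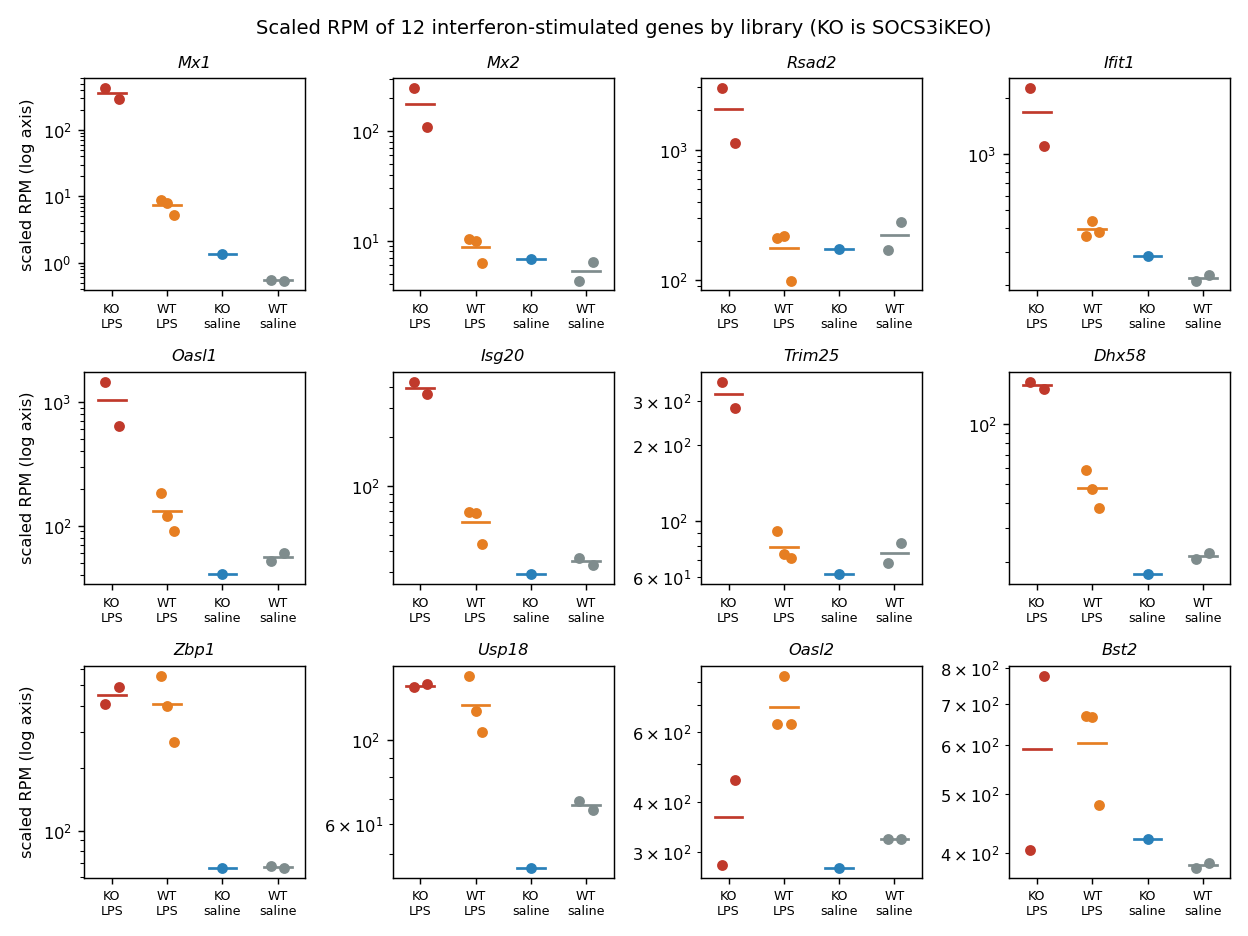
Scaled RPM on a log axis of 12 genes in each library, by group (KO is SOCS3iKEO), with the group mean as a bar. In Mx1, Mx2, Rsad2, Oasl1, Isg20 and Trim25 both SOCS3iKEO LPS points are above all others, in Zbp1 and Usp18 they lie among the WT LPS points, and in Oasl2 they lie below them.

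The remaining antiviral effectors held the 3 largest differences of all 40 genes, those of Mx1, Mx2 and Rsad2. Of the 9, 8 rose with LPS in SOCS3iKEO (6 on deposited RPM), 1 rose in WT (2 with DESeq2), and the difference of the effects was called for 6. Mx1, a dynamin-like GTPase that blocks influenza virus in the nucleus, had 429.8 and 297 scaled RPM in SOCS3iKEO LPS, against 8.76, 7.91 and 5.23 in WT LPS, 1.36 in SOCS3iKEO saline, and 0.555 and 0.538 in WT saline. The mean after LPS was 49.8 times as high in SOCS3iKEO as in WT, and both LPS groups were above saline, where Mx1 was close to absent. Its effects were 7.25 (SE 0.39, limma adjusted p = 2.1e-05) in SOCS3iKEO and 2.40 (SE 0.29, limma adjusted p = 0.0013) in WT, and differed by 4.85 (SE 0.48, limma adjusted p = 0.0031), a call that held under every alternative that could be run. Mx2, its neighbour on chromosome 16, is a related GTPase of the cytoplasm, typed as a polymorphic pseudogene in the GENCODE annotation. Mx2 had 247 and 109 scaled RPM in SOCS3iKEO LPS, against 10.3, 9.92 and 6.22 in WT LPS, 6.79 in SOCS3iKEO saline, and 4.33 and 6.35 in WT saline. WT LPS values ran into those of saline, WT LPS 3 being lower than SOCS3iKEO saline, and the difference of the effects was 3.78 (SE 0.62, limma adjusted p = 0.0084). Mx1 and Mx2 are similar in sequence, and reads shared between them cannot be told apart here.

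Rsad2 encodes viperin, which makes a chain-terminating nucleotide from CTP, and Cmpk2 encodes a mitochondrial nucleotide kinase. These genes lie head to head on chromosome 12 with 12751 bases between them, and neither was called for LPS in WT on scaled RPM, whereas on deposited RPM Cmpk2 fell there (-1.06, limma adjusted p = 0.026). Rsad2 had 2964 and 1122 scaled RPM in SOCS3iKEO LPS, against 210.4, 217 and 99.7 in WT LPS, 173 in SOCS3iKEO saline, and 169.7 and 279 in WT saline. SOCS3iKEO LPS alone stood apart, and WT LPS 3 was the lowest library of all. The LPS effect was 3.39 (SE 0.62, limma adjusted p = 0.0027) in SOCS3iKEO and -0.39 (SE 0.46, limma adjusted p = 0.61) in WT, a difference of 3.78 (SE 0.77, limma adjusted p = 0.016). Cmpk2 had 3517 and 2279 scaled RPM in SOCS3iKEO LPS, against 683, 717 and 442 in WT LPS, 975 in SOCS3iKEO saline, and 929 and 1118 in WT saline, so that each WT LPS library lay below each saline library and each SOCS3iKEO LPS library above. Its effect was 1.54 (SE 0.39, limma adjusted p = 0.011) in SOCS3iKEO and -0.76 (SE 0.29, limma adjusted p = 0.1) in WT, with a difference of 2.30 (SE 0.48, limma adjusted p = 0.017).

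Isg20, a 3′ exonuclease of RNA, had 432 and 364 scaled RPM in SOCS3iKEO LPS, against 69.6, 68.1 and 44.1 in WT LPS, 29 in SOCS3iKEO saline, and 36.7 and 32.9 in WT saline. WT LPS exceeded saline by a small step and SOCS3iKEO LPS exceeded WT LPS 6.57-fold by the group means. Its LPS effect was 3.73 (SE 0.32, limma adjusted p = 0.00015) in SOCS3iKEO and 0.76 (SE 0.24, limma adjusted p = 0.061) in WT, and the difference, 2.97 (SE 0.40, limma adjusted p = 0.0053), held under every alternative run, as did those of Mx1, Mx2 and Trim25. Samd9l, a restriction factor that inhibits translation, had 86.7 and 65.5 scaled RPM in SOCS3iKEO LPS, against 23.1, 35.9 and 21.9 in WT LPS, 13.3 in SOCS3iKEO saline, and 18.1 and 22 in WT saline, with a difference of effects of 2.03 (SE 0.45, limma adjusted p = 0.02). Rtp4, a negative regulator of interferon responses in mouse, and Xaf1, an adaptor linked to cell death, rose in SOCS3iKEO by 1.43 ± 0.29 and 1.83 ± 0.37 (log2, SE; limma adjusted p = 0.0045 and 0.0046). Their differences of effects, 0.98 and 1.30, were not called (limma adjusted p = 0.089 and 0.082). Bst2, encoding tetherin, which holds virions at the cell surface, had 404 and 777 scaled RPM in SOCS3iKEO LPS, against 669, 666 and 479.6 in WT LPS, 422 in SOCS3iKEO saline, and 378 and 386 in WT saline, and the spread between the SOCS3iKEO LPS libraries covered the whole WT LPS range.

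Among genes of the ISG15 system and the ubiquitin ligases, Usp18 removes ISG15 from proteins and also blocks signalling at IFNAR2. Usp18 had 139 and 141 scaled RPM in SOCS3iKEO LPS, against 148, 119.7 and 105 in WT LPS, 45.9 in SOCS3iKEO saline, and 69.3 and 65.4 in WT saline. SOCS3iKEO LPS values lay within the WT LPS range, and all LPS libraries were above saline. LPS raised it by 1.58 (SE 0.27, limma adjusted p = 0.0019) in SOCS3iKEO and by 0.86 (SE 0.20, limma adjusted p = 0.021) in WT. The difference of 0.72 was not called (limma adjusted p = 0.15) and had a 95% interval of -0.03 to 1.47. SOCS3iKEO saline was the lowest library, and after LPS alone the genotypes differed by 0.18 (95% interval -0.27 to 0.63), and on deposited RPM by -0.38 (limma adjusted p = 0.14).

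Trim25, the ligase that modifies RIG-I, had 358 and 282 scaled RPM in SOCS3iKEO LPS, against 91.4, 74 and 71.7 in WT LPS, 61.5 in SOCS3iKEO saline, and 68 and 81.7 in WT saline. WT LPS overlapped saline, and both SOCS3iKEO LPS libraries were far above. The effect was 2.35 (SE 0.28, limma adjusted p = 0.00042) in SOCS3iKEO and 0.07 (SE 0.21, limma adjusted p = 0.84) in WT, and the difference was 2.27 (SE 0.35, limma adjusted p = 0.0067). Of this group 4 of 5 rose in SOCS3iKEO (2 on deposited RPM) and 1 in WT, Usp18, which was not called on deposited RPM. Trim30a, known in mouse to restrain TLR signalling, had 595 and 589.8 scaled RPM in SOCS3iKEO LPS, against 345, 276 and 208 in WT LPS, 218 in SOCS3iKEO saline, and 199 and 244 in WT saline. Herc6, the mouse ligase that attaches ISG15, had 25.6 and 27.8 scaled RPM in SOCS3iKEO LPS, against 21.1, 17.8 and 12.4 in WT LPS, 9.05 in SOCS3iKEO saline, and 9.83 and 11 in WT saline. Both rose in SOCS3iKEO, by 1.44 for Trim30a and 1.46 for Herc6 (limma adjusted p = 0.0064 and 0.01), with neither difference of effects called. Trim21, a cytosolic antibody receptor, was set apart by SOCS3iKEO LPS 1, with 175 and 67.4 scaled RPM in SOCS3iKEO LPS against 67.1, 39.5 and 29.8 in WT LPS, and was called between genotypes after LPS only (log2 fold change 1.32, SE 0.42, limma adjusted p = 0.027), a call lost without SOCS3iKEO LPS 1. Trim30a has close relatives, so that its reads may be shared with them.

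The PARP group rose together in SOCS3iKEO, where 4 of 4 were called (1 of 4 on deposited RPM, all 4 fold changes above 0), and 0 of 4 were called in WT by limma. All genes gave 20.2% higher in SOCS3iKEO (9.51% deposited) and 6.85% higher in WT (4.57% deposited). Parp9 and its partner Dtx3l, a ubiquitin ligase, form a complex, and Parp14 and Parp12 are mono-ADP-ribosyl transferases. Parp9 had 2178 and 957 scaled RPM in SOCS3iKEO LPS, against 386, 239.6 and 241 in WT LPS, 230.2 in SOCS3iKEO saline, and 169 and 163 in WT saline, and its effects were 2.64 (SE 0.47, limma adjusted p = 0.0023) in SOCS3iKEO and 0.76 (SE 0.35, limma adjusted p = 0.17) in WT. Both SOCS3iKEO LPS libraries were above all others, but the difference of 1.89 missed the threshold (limma adjusted p = 0.051). The differences for Dtx3l, Parp14 and Parp12 were 1.71, 1.29 and 0.84, likewise not called by limma or edgeR. DESeq2 called the difference higher for 3 of the 4, and limma and edgeR found 4 of 4 at an unadjusted p under 0.05, against 1 of 4 by limma on deposited RPM. Over all genes, limma found 4597 of 12820 at that unadjusted threshold in either direction (5103 deposited). At an unadjusted p under 0.05, limma and edgeR found 0 of the 4 for LPS in WT and DESeq2 found 1, and with adjustment edgeR and DESeq2 called 0. Dtx3l and Parp9 start on opposite strands of chromosome 16 and overlap by 682 bases in the annotation, and the strand setting of the counting is not given, so reads from the overlap cannot be assigned.

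Among the remaining genes, Lgals3bp, a secreted glycoprotein, rose in both genotypes. It had 604 and 837 scaled RPM in SOCS3iKEO LPS, against 181, 152 and 136 in WT LPS, 83 in SOCS3iKEO saline, and 73.5 and 69 in WT saline, ordered without overlap from SOCS3iKEO LPS through WT LPS to saline, and its effects of 3.08 (SE 0.29, limma adjusted p = 0.00018) in SOCS3iKEO and 1.11 (SE 0.21, limma adjusted p = 0.01) in WT differed by 1.97 (SE 0.36, limma adjusted p = 0.011). Trafd1, a feedback regulator of TLR signalling also known as FLN29, had 1839 and 1258 scaled RPM in SOCS3iKEO LPS, against 419, 244 and 183 in WT LPS, 142 in SOCS3iKEO saline, and 168 and 158 in WT saline, with a difference of effects of 2.71 (SE 0.55, limma adjusted p = 0.016). Both SOCS3iKEO LPS values were above all others by a wide margin, while in WT the rise missed the threshold. Epsti1, named for its induction in epithelium by stroma, had 76.5 and 54.4 scaled RPM in SOCS3iKEO LPS, against 15.1, 13.3 and 12.9 in WT LPS, 15.9 in SOCS3iKEO saline, and 11.1 and 15.8 in WT saline, with WT LPS inside the saline range and a difference of 1.90 (SE 0.42, limma adjusted p = 0.02). Znfx1, a helicase that senses viral RNA at mitochondria, had 491 and 632 scaled RPM in SOCS3iKEO LPS, against 329, 269 and 204 in WT LPS, 147 in SOCS3iKEO saline, and 217 and 208 in WT saline, with a difference of 1.61 (SE 0.39, limma adjusted p = 0.026). Ifi35 rose in both genotypes, with 548 and 414 scaled RPM in SOCS3iKEO LPS, against 388, 337 and 279.7 in WT LPS, 181 in SOCS3iKEO saline, and 171 and 186 in WT saline, and a difference of 0.50 that was not called.

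Ifi44 was the other gene that fell with LPS in WT. It had 585 and 599.6 scaled RPM in SOCS3iKEO LPS, against 320.5, 442 and 252 in WT LPS, 505 in SOCS3iKEO saline, and 572 and 644 in WT saline. On scaled RPM WT LPS was below all other groups, which lay close to each other. On deposited RPM Ifi44 had 393 and 425 in SOCS3iKEO LPS, against 319, 472 and 254 in WT LPS, 629.8 in SOCS3iKEO saline, and 722 and 804 in WT saline, so that both LPS groups overlapped and lay below saline. On scaled RPM the fall in WT was -0.88 (SE 0.25, limma adjusted p = 0.042) against a log2 fold change of 0.23 in SOCS3iKEO (limma adjusted p = 0.6), where the deposited value turned to -0.62 (limma adjusted p = 0.16). The difference, 1.11 (SE 0.41, limma adjusted p = 0.091), was not called. The fall in WT was lost without WT LPS 1 or 3 and without either WT saline library, and that of Ifit2 was lost without WT LPS 3 and without either WT saline library. Helz2, a nuclear receptor coactivator, and Sp100, a nuclear body protein, had fold changes in SOCS3iKEO of 0.67 and 0.57 on the log2 scale, neither called.

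**Figure D4:**
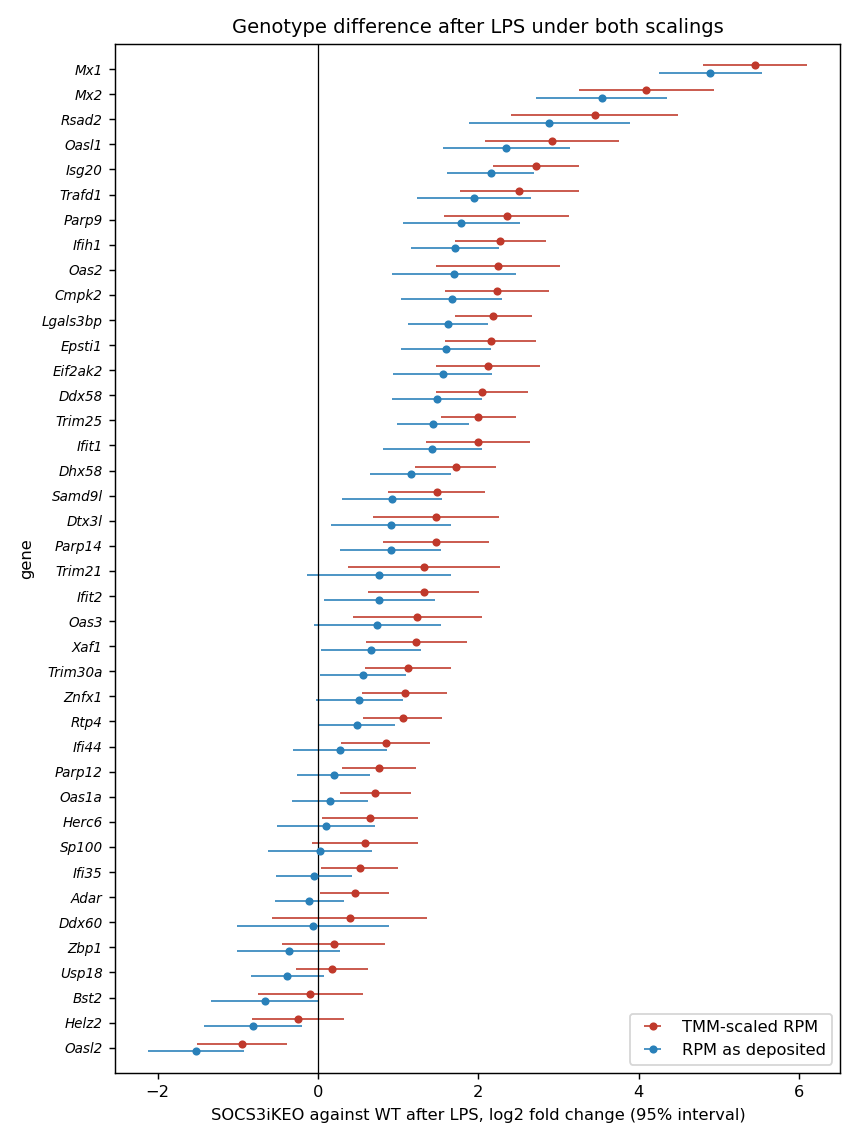
Log2 fold change of SOCS3iKEO against WT after LPS with its 95% interval for the 40 genes (down the page, sorted by the TMM value), on TMM-scaled RPM and on RPM as deposited. Mx1 is at the top with 5.46 and Oasl2 at the bottom with -0.95 on scaled RPM, and every deposited value lies to the left of its scaled value.

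Mice of the same group differed in a way that ran across the genes. WT LPS 1 had the highest scaled RPM of the WT LPS libraries for 30 of 40 genes, and WT LPS 3 had the lowest for 37. On deposited RPM these counts were 27 and 37. They were not made over all genes, so whether this order is particular to the 40 genes was not tested. WT LPS 1 was also the WT LPS library with few Y-linked reads, as were all SOCS3iKEO libraries. With a term for Y-linked reads, 5 of the 31 calls between genotypes after LPS were lost. Between the SOCS3iKEO LPS libraries, library 1 was higher for 26 of 40 genes, the ratio of library 1 to library 2 running from 0.339 (Ddx60) to 2.64 (Rsad2) with a median of 1.26. The highest ratios belonged to Rsad2, Trim21, Parp9, Oasl1 and Mx2, where the SOCS3iKEO LPS mean rests mostly on library 1.

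Genes of the interferon pathway outside the 42 did not move as a block. Of 53 listed genes, 47 were in the table and 32 passed the filter. In SOCS3iKEO, 12 rose and 6 fell with LPS (8 and 9 on deposited RPM), against 20.2% and 23.9% of all genes (9.51% and 44.4% deposited). In WT 8 rose and 0 fell by limma (7 and 1 on deposited RPM), against 6.85% and 8.79% (4.57% and 18.5% deposited). For falls in WT, DESeq2 called 1, edgeR 0, and limma at an unadjusted p under 0.05 found 1. The share that fell by limma did not exceed that of all genes in either genotype. The ligands were close to absent, since 15 ligands had between 0 and 15 reads each in a library. Ifnb1, the interferon beta gene, had 0 and 1 reads in SOCS3iKEO LPS, against 1, 0 and 0 in WT LPS, 0 in SOCS3iKEO saline, and 0 and 0 in WT saline, and Ifng, the interferon gamma gene, had 3 and 2 in SOCS3iKEO LPS, against 0, 0 and 0 in WT LPS, 0 in SOCS3iKEO saline, and 1 and 0 in WT saline. A floor of 3 reads corresponds to between 0.202 and 0.423 RPM. These libraries were made to sample endothelial ribosomes at 14 h, and markers of other cells were also read in them. Ligand RNA of other cells is thus measured in part at most, and ligand RNA of earlier times is not measured.

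The receptor chains Ifnar1 and Ifnar2 were not called in either genotype, with log2 fold changes of -0.65 and 0.36 in SOCS3iKEO and -0.37 and 0.02 in WT. Ifnar1 differed between the SOCS3iKEO LPS libraries, with 17.7 and 68.1 scaled RPM. Of all 6 receptor genes listed, limma called 1 higher and 2 lower with LPS in SOCS3iKEO (0 and 3 deposited). In WT it called 0 and 0 (0 and 1 deposited). The kinases of these receptors parted. Tyk2 had 3.18 and 6.6 scaled RPM in SOCS3iKEO LPS, against 42.2, 143 and 113 in WT LPS, 45.7 in SOCS3iKEO saline, and 44.2 and 54.4 in WT saline, so that SOCS3iKEO LPS lay far below every other library, and the difference of effects was -3.88 (SE 0.79, limma adjusted p = 0.016). Jak2, the kinase of the interferon gamma and many cytokine receptors, had 163 and 146 scaled RPM in SOCS3iKEO LPS, against 42.8, 25.5 and 25.7 in WT LPS, 19.1 in SOCS3iKEO saline, and 27.1 and 22.1 in WT saline, with a difference of 2.64 (SE 0.44, limma adjusted p = 0.0085). Jak1 rose with LPS in SOCS3iKEO by 1.48 (SE 0.42, limma adjusted p = 0.018) and was not called on deposited RPM (0.63, limma adjusted p = 0.21). Stat2 and Irf9, which encode parts of ISGF3, were not called in either genotype, with Stat2 at 1.11 in SOCS3iKEO and 1.07 in WT.

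Of the interferon regulatory factors, Irf7, which amplifies interferon production, Irf5 and Irf8 rose in both genotypes. Irf7 had 840 and 1444 scaled RPM in SOCS3iKEO LPS, against 506, 333 and 245 in WT LPS, 93.7 in SOCS3iKEO saline, and 90.3 and 79.7 in WT saline, with effects of 3.54 (SE 0.44, limma adjusted p = 0.0005) in SOCS3iKEO and 2.01 (SE 0.33, limma adjusted p = 0.0051) in WT. Irf3, the factor that starts interferon beta transcription, had 10.6 and 22.6 scaled RPM in SOCS3iKEO LPS, against 80.5, 88.8 and 96 in WT LPS, 77.5 in SOCS3iKEO saline, and 54.5 and 73.8 in WT saline, and fell in SOCS3iKEO with a log2 fold change of -2.25 (SE 0.40, limma adjusted p = 0.0025). Mavs, the mitochondrial adaptor of RIG-I and MDA5, had 14.7 and 23.5 scaled RPM in SOCS3iKEO LPS, against 45.3, 71.5 and 76.7 in WT LPS, 88.1 in SOCS3iKEO saline, and 91.4 and 68.9 in WT saline, and likewise fell in SOCS3iKEO (log2 fold change -2.19, SE 0.40, limma adjusted p = 0.0026), whereas in WT neither was called. For Tyk2, Irf3 and Mavs the SOCS3iKEO LPS libraries were the lowest of all 8. Cd14, the LPS co-receptor, had 3964 and 2851 scaled RPM in SOCS3iKEO LPS, against 249, 65.9 and 115 in WT LPS, 21.3 in SOCS3iKEO saline, and 14.3 and 22.7 in WT saline, and rose in both genotypes with a difference of 4.53 (SE 0.79, limma adjusted p = 0.01). Tlr3, a sensor of RNA duplexes in endosomes, rose in SOCS3iKEO by 2.15 (SE 0.32, limma adjusted p = 0.0011), and Tbk1 and Ikbke, the kinases of IRF3, and Tmem173, encoding STING, rose in both. On deposited RPM the rises of Tbk1 and Ikbke in SOCS3iKEO were not called (0.31 and 0.71, limma adjusted p = 0.37 and 0.14). Of the phosphatases that restrain JAK kinases, Ptpn2 rose in both genotypes, by 1.87 in SOCS3iKEO and 0.76 in WT (the rise in WT was not called on deposited RPM), and Socs3 was not called.

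**Figure D5:**
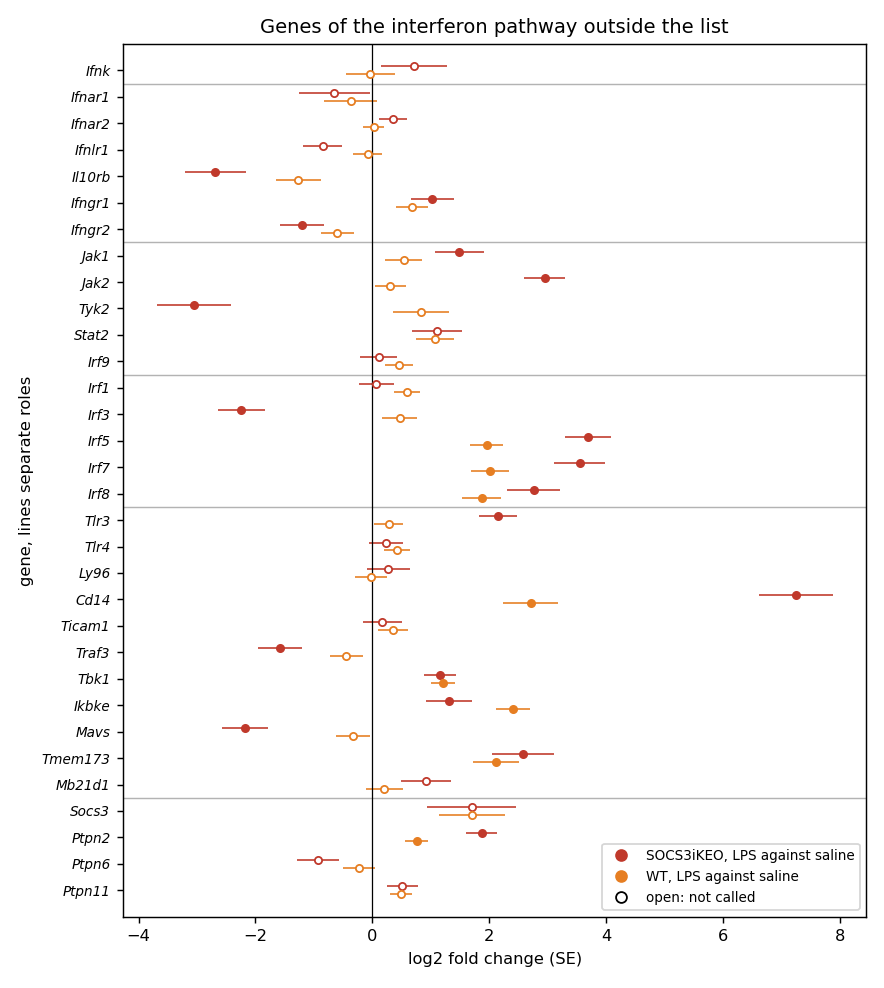
Log2 fold change of LPS against saline (bars of 1 SE) in SOCS3iKEO and in WT for the 32 pathway genes tested, grouped by role down the page; filled points are called and open points are not. Cd14 is farthest to the right at 7.24 in SOCS3iKEO, and Tyk2 farthest to the left at -3.05.

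A list of 48 further interferon-inducible genes, 38 of them tested, ran alongside. In SOCS3iKEO 25 rose and 2 fell with LPS, against 20.2% and 23.9% of all genes. In WT 8 rose and 2 fell, against 6.85% and 8.79%. The difference of the effects was higher for 14 and lower for 1 (Trim34a), against 8.96% and 9.49%. On deposited RPM limma called 21 higher and 6 lower in SOCS3iKEO, against 9.51% and 44.4% of all genes. In WT it called 8 and 5 there, against 4.57% and 18.5%. For the difference it called 10 and 2, against 4.84% and 20%, the added lower one being Trim12c. DESeq2 called 25 and 2 in SOCS3iKEO, 12 and 3 in WT, and 21 and 1 for the difference. On scaled RPM the median log2 fold change of this list was 1.83 in SOCS3iKEO and 0.39 in WT. These are close to the 1.90 and 0.50 of the 40 genes. Both lists were chosen with earlier results known and share the same libraries, so neither is separate support for the other. Cxcl10, a chemokine for T cells named here after its values were seen, had 30285 and 8379 scaled RPM in SOCS3iKEO LPS, against 437, 177 and 150 in WT LPS, 62.7 in SOCS3iKEO saline, and 24.5 and 35.5 in WT saline, with a difference of 5.07 (SE 0.95, limma adjusted p = 0.012). Several genes of this list, Cxcl9, Cxcl10, Cd274 and the Gbp genes among them, also answer interferon gamma.

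Markers of other cells moved with the groups in part. After LPS, 4 of 4 neutrophil, 7 of 8 proximal tubule and 7 of 8 loop and distal markers tested were called higher in SOCS3iKEO. On deposited RPM these were 4, 6 and 6. Also higher were 1 of 6 monocyte, 0 of 3 pan-leukocyte, 2 of 3 podocyte and 1 of 7 mural markers, with 1 mural marker lower. All genes gave 24% higher and 26.7% lower. The mural and fibroblast sum was 56.3 scaled RPM in SOCS3iKEO saline, against 20.5 and 28.1 in WT saline. The 6 neutrophil markers summed to 44 and 22.2 scaled RPM in SOCS3iKEO LPS (29.5 and 15.7 deposited), against 4.30 to 9.38 in WT LPS, 0.679 in SOCS3iKEO saline and 0.699 to 0.777 in WT saline, all far below the endothelial sum. The 5 pan-leukocyte markers, Ptprc among them, stayed between 2.89 and 13.8 scaled RPM, and the dendritic and the lymphocyte lists under 2 RPM on either scale, in all 8 libraries. Proximal tubule markers (8 of 8 in the table) summed to 613.7 and 410.5 scaled RPM in SOCS3iKEO LPS, against 79.2 to 139.6 in WT LPS, 430.1 in SOCS3iKEO saline, and 524 and 300.4 in WT saline. On deposited RPM they summed to 412 and 291 in SOCS3iKEO LPS, against 78.7 to 140.7 in WT LPS, 536 in SOCS3iKEO saline, and 661.7 and 375.2 in WT saline. SOCS3iKEO LPS lay above WT LPS on both scales, and below SOCS3iKEO saline on deposited RPM but on both sides of it on scaled RPM. The loop and distal tubule list had 552 and 532 scaled RPM in SOCS3iKEO LPS (370.6 and 377 deposited). In WT LPS it had 88.7 to 118 (88.2 to 119 deposited). After saline it had 217 in SOCS3iKEO, and 267 and 202 in WT (270.7, 337.2 and 252.3 deposited), so SOCS3iKEO LPS was highest on both scales. Monocyte and macrophage markers had 17.1 and 10.3 scaled RPM in SOCS3iKEO LPS, against 4.51 to 9.18 in WT LPS. After saline they had 9.62 in SOCS3iKEO, and 7.72 and 18.3 in WT. On deposited RPM they had 11.5 and 7.31 in SOCS3iKEO LPS, against 4.81 to 9.13 in WT LPS. The part of these cells in the genotype differences was not tested.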

How the data were processed

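Per the labels' protocols, endothelial RNA came from mouse kidneys lysed in Trizol, with ribosomes tagged by the TRAP transgene, and libraries were made with the Ion AmpliSeq Transcriptome Mouse kit on an Ion Chef. Per the submitters' processing notes, the build mm10 and the software Transcriptome Analysis Console were involved, without a stated role. Aligner, counter and strand setting were not given in the sources used here.

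Expression values are deposited as reads per 1000000 panel reads (RPM) for 23930 amplicons in 8 libraries, normalized by the authors to a sum of 1000000 per library with no other scaling seen in the values. Within a tolerance of 0.1 read, 100% of values (99.99% in the SOCS3iKEO LPS libraries) corresponded to a whole number of reads, which gave 7093794 to 14877519 recovered reads per library. These are PCR reads without molecular identifiers, so floors of 3 reads cover counting error only. Gene names that a spreadsheet had turned into dates (27) were restored.

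RPM is not a count, so the main test was limma 3.58.1 (trended prior) on log2(TMM-scaled RPM + 1), which understates changes of low genes, in R 4.3.3. The fit held all 8 libraries and estimated a mean for each genotype and treatment, so the lone SOCS3iKEO saline library takes its spread from the other groups. The filterByExpr step on recovered reads (minimum 10, total 15) kept 12820 genes, over which p-values were adjusted (Benjamini-Hochberg, threshold 0.05). The fit was tested on simulated data. Alternatives were RLE scaling, RPM as deposited, no filter, a mean of at least 5 scaled RPM, pseudocounts of 0.1 and 10, edgeR 4.0.16 and DESeq2 1.42.0 on recovered reads, a term for Y-linked reads, each library left out, and fits of the compared groups alone. On recovered reads edgeR called 10, 32, 31, 0 and 20 of the 40 genes for LPS in WT, LPS in SOCS3iKEO, the genotypes after LPS, the genotypes after saline and the difference of the LPS effects, and 2065, 5194, 6253, 0 and 2114 of all genes.

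The members, the role groups and the other lists were chosen with earlier results of these data known. Values are given per library for genes called in WT, in the difference of effects or between genotypes after LPS, taking the largest changes of each role group first. Gene positions are from GENCODE M21 (mm10) and promoters from RefSeq (GRCm38.p6).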

Additional observations from a re-analysis of the deposited data

Results flagged for a closer look

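The LPS effect of 28 genes named above differed between SOCS3iKEO and WT by a test of the difference itself (limma, adjusted over 12820 genes). The values that follow are differences of log2 fold changes, SOCS3iKEO minus WT, on scaled RPM. Among antiviral effectors they were 4.85 for Mx1, 3.78 for Mx2, 3.78 for Rsad2, 2.97 for Isg20, 2.30 for Cmpk2 and 2.03 for Samd9l. Among sensors and enzymes that act on RNA duplexes they were 2.38 for Ifih1, 2.10 for Ddx58, 2.01 for Dhx58 and 2.10 for Eif2ak2. In the OAS and IFIT families they were 3.37 for Oasl1, 2.51 for Oas2, 1.26 for Oas1a, 1.85 for Ifit2 and 1.61 for Ifit1. The rest of the 40 genes with a called difference were Trafd1 with 2.71, Trim25 with 2.27, Lgals3bp with 1.97, Epsti1 with 1.90 and Znfx1 with 1.61.

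Of 32 pathway genes tested outside the 42, the difference was called higher for 5 and lower for 3, against 8.96% and 9.49% of all genes. On deposited RPM it was called higher for 3 and lower for 5 (against 4.84% and 20% of all genes), the added lower ones being Ikbke and Traf3. With edgeR the counts were 3 and 3, and with DESeq2 6 and 3. On scaled RPM the difference was 4.53 for Cd14, 2.64 for Jak2, 1.88 for Tlr3, 1.73 for Irf5 and 1.11 for Ptpn2. It was -1.85 for Mavs, -2.72 for Irf3 and -3.88 for Tyk2. On deposited RPM the differences of Irf5 (1.16, limma adjusted p = 0.11) and Ptpn2 (0.56, limma adjusted p = 0.23) were not called, nor were those of Ifit1, Ifit2, Oas1a and Znfx1.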

How the results depend on the processing

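No called fold change of the 40 genes or of the pathway genes reversed under any alternative run. With no filter on low values, 5 in place of 11 genes were called for LPS in WT and 7 in place of 20 for the difference of the LPS effects; more genes were tested there, and the cause was not tested. Leaving out 1 library at a time gave 2 to 14 calls for LPS in WT, 32 to 33 for LPS in SOCS3iKEO, 25 to 35 between genotypes after LPS, 0 to 0 after saline and 4 to 25 for the difference, each such fit having fewer samples. Leaving out the SOCS3iKEO saline library removes 3 of these comparisons. Calls held under every setting for 23 of 32 genes for LPS in SOCS3iKEO, 2 of 11 in WT, 19 of 31 between genotypes after LPS and 4 of 20 for the difference. Under the other alternatives the total number of the 40 genes called in each of these comparisons stayed within 1.5 times that given in the report. Counts by direction and counts of smaller groups of genes moved by more with DESeq2 or on deposited RPM, with the OAS family (2 in WT, against 4 and 1), the PARP group (0 for the difference, 3 with DESeq2) and the further interferon-inducible genes as examples given in the report. No paired analysis was possible because the groups share no replicate numbers in the labels. The depth of 1 read per 0.0672 to 0.141 RPM limits statements on the ligands and on Socs3.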
